A study of Mus musculus with 4 samples.

Results

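The lung transcriptome of mice given amiodarone together with dabigatran was compared with that of mice given amiodarone alone, over all genes. The genes were taken if they reached at least 1 FPKM (fragments per kilobase of transcript, scaled for the number of reads in the library, a level per length) in either library, which left 13261 of the 17780 genes in the table. RNA was sequenced from the lungs of young male C57BL/6 mice (C57BL/6J in the study's methods) treated, per the labels, for 28 days with vehicle (carboxymethylcellulose), amiodarone in that vehicle, dabigatran (given as its prodrug, dabigatran etexilate) or amiodarone + dabigatran. The study's methods place the lung collection slightly earlier than the labels do. All drugs were given by mouth on weekdays, no engineered allele is named for the mice, and the 4 groups differed in the drugs. Each group has 1 library, and the sources used here do not say whether it holds 1 animal or a pool, so every difference below is between 2 libraries: it carries a counting error, no error between animals and no test, and treatment cannot be told apart from any other difference between the lungs sequenced. The other 2 libraries, vehicle and dabigatran, are given beside it.

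Amiodarone is an antiarrhythmic, iodine-rich cationic amphiphilic drug that accumulates in lysosomes and is known for injury to the lung. Dabigatran directly inhibits thrombin, the protease that converts fibrinogen to fibrin and also cleaves protease-activated receptors on platelets, endothelium and other cells. The lung holds epithelial, endothelial and mesenchymal cells, resident and recruited macrophages, and blood cells in its large capillary bed, so a whole-lung level is a sum over all of them. The question of this comparison is which gene programmes are higher or lower when dabigatran is added to amiodarone.

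The libraries held between 17498486 and 18903401 estimated reads, 18725403 with amiodarone and 18903401 with both drugs. A count of 0 allows up to 3 reads, 1.60e-05% of the amiodarone library. Genes that define lung were abundant in every library: surfactant (Sftpc, Sftpb), airway club cells (Scgb1a1), alveolar type 1 cells (Ager) and endothelium (Cdh5), the lowest of these values being 247 FPKM for Cdh5 with both drugs. Scgb1a1 alone took 3.04% of reads with amiodarone and 4.02% with both drugs. Differences are given as log2((combination + 1)/(amiodarone + 1)), called the log2 difference, and the ratio of FPKM carries an exact 95% counting interval from the reads. A gene is said to rise or fall where that interval excludes 1, which speaks of these 2 libraries only. The effective length behind an FPKM can differ between libraries, so a ratio need not lie at the centre of its interval. Genes named as the exceptions to a count were picked after their values were seen.

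Most genes differed little. The log2 difference had a median of 0.03, and 90% of genes lay between -0.29 and 0.35. With both drugs 25 genes (0.189%) were at least 2-fold higher and 38 (0.287%) at least 2-fold lower on this scale, and at 1.5-fold the counts were 140 (1.06%) and 162 (1.22%). Beyond counting error, 2771 genes (20.9%) rose and 1937 (14.6%) fell, many of them abundant genes with small differences, while 8553 (64.5%) lay within it. Of the 38 genes lower by 2-fold, 13 belonged to a list of interferon-stimulated genes and 6 to a list of red blood cell genes, and 9 were predicted genes or pseudogenes. Of the 25 genes higher by 2-fold, 5 belonged to a platelet list, 3 to a mesothelium list and 3 to a macrophage list. These groups overlap, and in all 23 of the lower genes were in at least 1 list and 15 in none, against 12 and 13 of the higher genes.

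**Figure D1:**
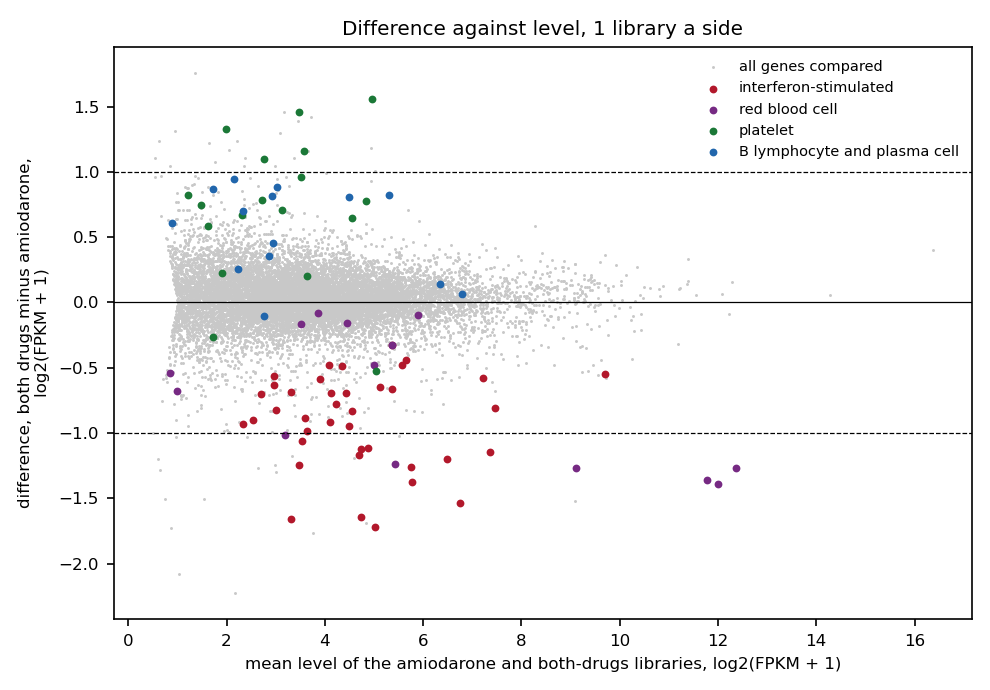
Difference between the combination and amiodarone libraries (vertical axis, log2(FPKM + 1)) against the mean level of the same 2 libraries (horizontal axis, log2(FPKM + 1)) for 13261 genes, with dashed lines at 2-fold. Interferon-stimulated genes (red) all lie below 0, red blood cell genes (purple) reach -1.39 at very high level, and platelet (green) and B lymphocyte genes (blue) lie mostly above 0.

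The genes were grouped into 45 lists of cell type markers and pathways. Counts of members that rose or fell are to be read beside the shares over all genes, 20.9% and 14.6%. At 1.5-fold these shares are 1.06% higher and 1.22% lower. In 2 lists the median member was at least 1.5-fold lower with both drugs than with amiodarone: interferon-stimulated genes, at a median log2 difference of -0.83, and red blood cell genes, at -0.61. Without the filter on low levels the red blood cell median was -0.51 and no longer passed 1.5-fold. In 2 lists it was at least 1.5-fold higher: platelet genes at 0.76 and B lymphocyte and plasma cell genes at 0.65. The median over all genes was 0.03. Between these ends lay interferon-gamma GTPases and effectors (-0.46), immediate early genes (-0.42), genes of the glucocorticoid response and metallothionein (-0.32), lung endothelium (-0.25) and, on the other side, mesothelium (0.29).

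**Figure D2:**
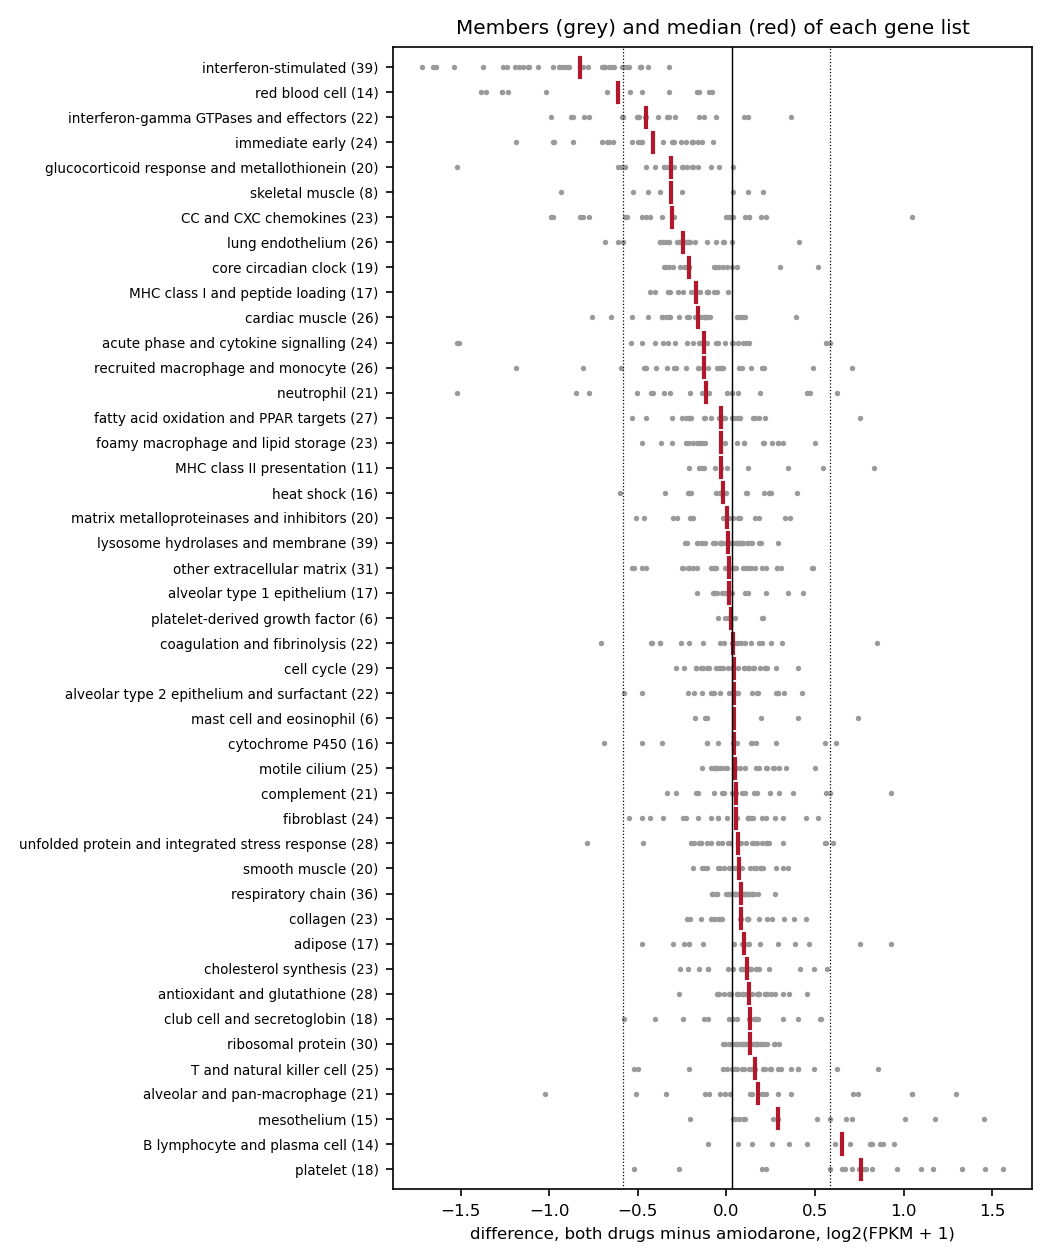
Log2 difference, combination minus amiodarone, of each list member (grey points) and the list median (red bars), with the number of genes compared in parentheses. The solid line marks the median over all genes, 0.03, and the dotted lines 1.5-fold; only the interferon-stimulated, red blood cell, B lymphocyte and platelet medians pass them.

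Interferon-stimulated genes, which are switched on by type I and III interferon and which encode antiviral proteins, were lower with both drugs throughout. Of the 42 genes on the list 40 were in the table and 39 were compared. All 39 fell beyond counting error, 31 of them by at least 1.5-fold, against 14.6% and 1.22% of all genes. The members ranged from -1.72 to -0.33, and the median of -0.83 corresponds to 0.56 of the amiodarone level.

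Isg15, a ubiquitin-like protein that is conjugated to other proteins, measured 11.7 FPKM with vehicle, 58.2 with amiodarone, 12.3 with dabigatran alone and 17 with both drugs. The combination held 0.292 of the amiodarone level (counting interval 0.251 to 0.34). Ifi44, an interferon-induced cytoplasmic protein, measured 3.44, 16.5, 4.47 and 4.56 FPKM in the same order, a ratio of 0.276 (0.237 to 0.316). In both genes the amiodarone library stood far above the others. Isg15 with both drugs lay above vehicle and dabigatran, while Ifi44 with both drugs was close to dabigatran alone. Ifit1, which binds viral RNA, measured 7.86 FPKM with vehicle, 46.1 with amiodarone, 10.3 with dabigatran alone and 14.1 with both drugs, a ratio of 0.306 (0.281 to 0.334). Its relative Ifit3 measured 36.9, 184, 42.6 and 62.7 FPKM, a ratio of 0.341 (0.323 to 0.356), with the reservation that its reads can be shared with the near-identical Ifit3b. The transcription factor gene Irf7, which drives interferon production, measured 14.7, 87.0, 17.2 and 33.0 FPKM, a ratio of 0.379 (0.355 to 0.408). For Irf7 and Ifit3 the combination lay clearly above vehicle and dabigatran while remaining far below amiodarone.

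Set beside the vehicle library, 37 of the 39 genes were still higher with both drugs, the exceptions being Isg20 (42.4 FPKM with vehicle, 35.7 with both drugs) and Samd9l (13.7 and 13.3 FPKM). Of all 13261 genes, 6407 were higher than vehicle with both drugs and 5530 with amiodarone. All 39 were higher with amiodarone than with vehicle, at a median log2 difference of 1.35. That comparison shares the amiodarone library with the present one, so a high value there lowers the other by construction, and their directions are not independent. Dabigatran against vehicle shares no library with it: there the median of the list was 0.19, 36 genes were higher and 3 lower, and 1 gene passed 1.5-fold upwards and 0 downwards, against 0.449% and 0.501% of all genes. Over all 13261 genes, 6642 were higher with dabigatran than with vehicle and 6549 lower. The summed level of the list was 1157 FPKM with vehicle, 2986 with amiodarone, 1312 with dabigatran alone and 1694 with both drugs. In whole lung, fewer cells that express a gene and less of its RNA per cell cannot be told apart. Beside this, the summed level of 26 recruited macrophage and monocyte genes was 1525 FPKM with amiodarone and 1412 with both drugs, and that of 25 neutrophil genes 1621 and 843 FPKM, of which Lcn2 made up 921 and 320.1. The part of these cells in the interferon result was not tested.

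**Figure D3:**
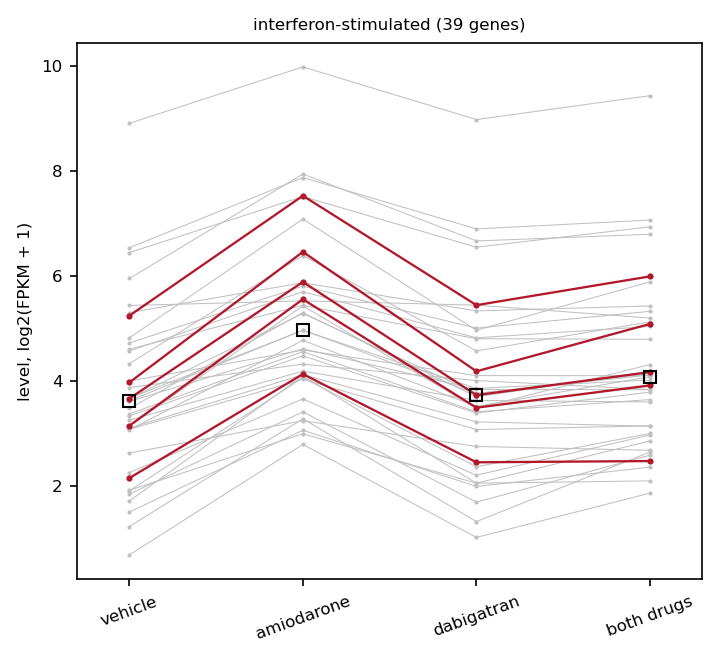
Level (vertical axis, log2(FPKM + 1)) of the 39 interferon-stimulated genes in the 4 libraries, with 1 line for each gene, the 5 genes with the largest difference in red (Isg15, Ifi44, Ifit1, Ifit3, Irf7) and squares at the list median. All 39 genes are lower with both drugs than with amiodarone, and 37 of them remain above vehicle.

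The promoters of these genes are shown because the list carries the largest median difference and the elements through which interferon acts are short. The sequences are those of RefSeq on GRCm38.p6, written 5′ to 3′ on the strand of the gene. Each runs from 250 bases before to 50 bases after an annotated start of transcription. Capitals mark the motif GAAANNGAAA, the core of an interferon-stimulated response element, where it occurs on either strand (on the other strand it reads TTTCNNTTTC), and overlapping copies run together. The 3 members with the largest differences that hold it are Isg15 at chr4:156200769-156201068, minus strand, Ifit1 at chr19:34640639-34640938, plus strand, and Ifit3 at chr19:34583279-34583578, plus strand. For each gene, only annotated starts whose promoter holds the motif were considered, and the first was taken. The Ifit3 start shown lies inside the gene, which begins at chr19:34583119.
Isg15: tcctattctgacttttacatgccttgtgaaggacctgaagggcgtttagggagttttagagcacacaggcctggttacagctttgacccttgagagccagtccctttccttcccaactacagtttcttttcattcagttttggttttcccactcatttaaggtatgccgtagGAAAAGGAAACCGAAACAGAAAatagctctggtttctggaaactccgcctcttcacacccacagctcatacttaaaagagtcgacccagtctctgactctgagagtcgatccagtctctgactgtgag
Ifit1: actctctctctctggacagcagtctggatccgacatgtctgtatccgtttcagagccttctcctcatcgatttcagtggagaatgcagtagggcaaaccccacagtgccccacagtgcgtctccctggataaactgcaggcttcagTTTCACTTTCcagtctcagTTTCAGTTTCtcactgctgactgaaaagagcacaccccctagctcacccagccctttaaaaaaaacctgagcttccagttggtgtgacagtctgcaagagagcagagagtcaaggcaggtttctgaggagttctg
Ifit3: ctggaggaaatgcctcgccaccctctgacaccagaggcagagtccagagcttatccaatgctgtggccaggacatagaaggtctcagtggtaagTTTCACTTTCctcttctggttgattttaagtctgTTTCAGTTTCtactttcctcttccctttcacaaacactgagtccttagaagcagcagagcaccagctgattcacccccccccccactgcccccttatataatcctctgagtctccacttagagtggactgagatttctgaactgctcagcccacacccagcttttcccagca
In Isg15, 3 overlapping copies begin 78, 72 and 66 bases before the start, and in Ifit1 2 copies begin 104 and 85 bases before it. In Ifit3 2 copies begin 156 and 122 bases before the start shown, which lies inside the gene.

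A promoter sequence was found for 10552 of the genes compared, and 416 of these (3.94%) held the motif in at least 1 annotated promoter. In the interferon-stimulated list it was present in 17 of 31 (54.8%). Among genes at least 1.5-fold lower with both drugs that were not on that list it was present in 18 of 89 (20.2%), and among genes at least 1.5-fold higher in 4 of 109 (3.67%). None of 8 red blood cell, 9 B lymphocyte and 20 immediate early promoters held it, and 1 of 14 platelet promoters did. A match of letters is not a binding site, and these shares describe sequences, not the action of a factor.

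Genes induced mainly by interferon-gamma followed with smaller differences. Of 22 such genes, which encode guanylate-binding proteins (GBPs), immunity-related GTPases and effectors of cell-autonomous defence, 16 fell, 1 rose and 5 lay within counting error. Over all genes 14.6% fell and 20.9% rose. Cxcl10, a chemokine that attracts activated T cells, measured 1.15 FPKM with vehicle, 4.8 with amiodarone, 1.94 with dabigatran alone and 1.92 with both drugs, a ratio of 0.40 (0.267 to 0.59). The GTPase gene Gbp6 measured 6.14, 21.7, 8.72 and 11.4 FPKM, a ratio of 0.524 (0.487 to 0.572), and Gbp3 10.7, 26.7, 12.7 and 14.2 FPKM, a ratio of 0.531 (0.485 to 0.584). Each was highest with amiodarone, and Gbp3 with both drugs was close to dabigatran alone. The 1 gene that rose was Nos2, inducible nitric oxide synthase (log2 difference 0.36).

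In MHC class I and its peptide loading machinery, which carries peptides made by the proteasome to the cell surface, 14 of 17 genes fell and none rose. The shares over all genes were 14.6% and 20.9%. The median of the list was only -0.17 and none passed 1.5-fold. B2m, the invariant light chain, measured 1301 FPKM with vehicle, 2601 with amiodarone, 1786 with dabigatran alone and 2081 with both drugs, a ratio of 0.80 (0.789 to 0.813). The peptide transporter gene Tap1 measured 26.2, 54.3, 31.1 and 42.9 FPKM, a ratio of 0.791 (0.749 to 0.836). All 17 genes remained higher with both drugs than with vehicle, against 6407 of all 13261 genes. In MHC class II presentation 3 of 11 genes rose and 4 fell around a median of -0.03, and the 3 with the largest differences, H2-Ob (ratio 1.94, 1.73 to 2.40), H2-DMb2 and H2-Oa, rose. H2-Ob encodes a chain of H2-O, a modulator of peptide loading known from B cells.

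Red blood cell genes were lower with both drugs. Of 17 genes 14 were compared, 13 fell, 7 by at least 1.5-fold, against 14.6% and 1.22% of all genes, and 1 (Slc25a37, the mitochondrial iron importer) lay within counting error. The list median ranged from -1.12 to -0.51 over the alternative settings, the last being without a filter and short of 1.5-fold. The beta-globin gene Hbb-bs (chr7:103826523-103827928, GRCm38.p6) measured 4561 FPKM with vehicle, 6645 with amiodarone, 5337 with dabigatran alone and 2540.1 with both drugs, a ratio of 0.382 (0.378 to 0.388). The alpha-globin gene Hba-a2 measured 4398, 5661, 4757 and 2205 FPKM, a ratio of 0.39 (0.384 to 0.396). For both globins the combination was the lowest of the 4 libraries, below vehicle as well as below amiodarone. Hba-a1 and Hbb-bt, near-identical copies that share reads with these, gave ratios of 0.415 and 0.416. Alas2, the first enzyme of haem synthesis in erythroid cells, measured 46.2, 65.4, 53.6 and 27.3 FPKM, a ratio of 0.417 (0.387 to 0.449). The 4 globin genes together took 0.832% of reads with vehicle, 1.13% with amiodarone, 0.925% with dabigatran alone and 0.451% with both drugs. Isg20 stands on this list and on the interferon list.

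Platelet genes went the other way. All 18 on the list were compared, 16 rose beyond counting error and 13 did so by at least 1.5-fold, against 20.9% and 1.06% of all genes, at a median of 0.76. Ppbp (chr5:90768518-90770063), a chemokine precursor stored in platelet granules, measured 31.8 FPKM with vehicle, 17.1 with amiodarone, 40.3 with dabigatran alone and 52.4 with both drugs, a ratio of 3.06 (2.7 to 3.48). Gp9, a subunit of the receptor for von Willebrand factor, measured 10.03, 5.73, 11.7 and 17.5 FPKM, and its partner Gp1bb 5.17, 3.66, 4.59 and 8.96 FPKM. The ratio was 3.06 (2.13 to 3.39) for Gp9 and 2.45 (1.99 to 3.05) for Gp1bb. Treml1, a receptor of platelet granules, measured 3.44, 1.49, 3.25 and 5.25 FPKM (117 reads with both drugs, ratio 3.52, 2.37 to 5.34), and Tubb1, the beta-tubulin of the platelet rim, 9.52, 6.95, 12.97 and 16.8 FPKM (ratio 2.42, 2.09 to 2.81). In all 5 genes the combination was the highest library and amiodarone the lowest. The 2 members that fell were Thbs1 (thrombospondin 1, -0.52) and Selp (P-selectin, -0.27), which other lung cells also express. With both drugs 16 of the 18 genes were above vehicle and 16 above dabigatran, against 6407 and 6347 of all 13261 genes.

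B lymphocyte genes were also higher. Of 23 genes on the list, 8 immunoglobulin genes were not analysed here and 14 were compared. Of these 12 rose, 8 by at least 1.5-fold, against 20.9% and 1.06% of all genes, and 2 (Jchain and Mzb1, both of plasma cells) lay within counting error. Pax5, the transcription factor that maintains B cell identity, measured 7.06 FPKM with vehicle, 2.2 with amiodarone, 7.39 with dabigatran alone and 5.16 with both drugs. Cd79a, a signalling chain of the B cell receptor, measured 86.1, 28.9, 70.7 and 51.9 FPKM, a ratio of 1.79 (1.63 to 1.97), and the inhibitory receptor gene Cd22 10.4, 4.76, 8.73 and 9.12 FPKM, a ratio of 1.92 (1.64 to 2.15). In these genes amiodarone was the lowest library and the combination lay between it and vehicle. Only 1 of the 14 genes, Xbp1, was above vehicle with both drugs, while 16 of 18 platelet genes were. Of all 13261 genes, 6407 were. The T and natural killer cell list had a median of 0.16. In it 11 of 25 genes rose and 2 fell, against 20.9% and 14.6% of all genes. The falling ones were Gzmb, a cytotoxic granule protease (2.93, 10.9, 7.53 and 7.25 FPKM, ratio 0.668, 0.553 to 0.808), and Cd4 (ratio 0.642, 0.522 to 0.777).

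**Figure D4:**
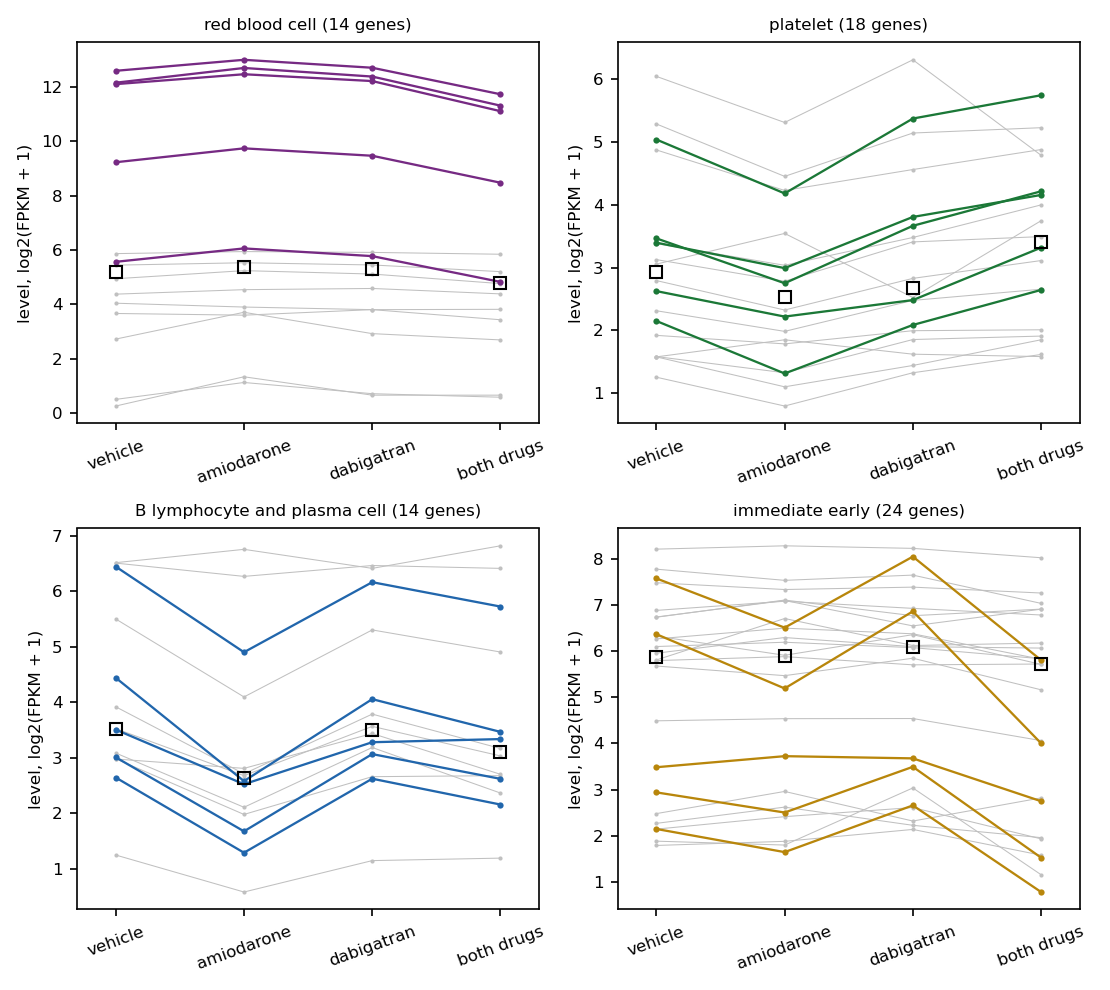
Level (vertical axes, log2(FPKM + 1)) of red blood cell, platelet, B lymphocyte and immediate early genes in the 4 libraries, with 1 line for each gene, the 5 genes with the largest difference coloured and squares at the list median. The globins are lowest with both drugs (Hbb-bs 2540.1 FPKM), the coloured platelet genes highest with both drugs (Ppbp 52.4 FPKM), the coloured B cell genes lowest with amiodarone (Pax5 2.2 FPKM), and the coloured immediate early genes lowest with both drugs (Nr4a1 15.02 FPKM).

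Immediate early genes, which encode transcription factors and signalling regulators induced within minutes of a stimulus and also by the handling of tissue, were lower with both drugs: 22 of 24 fell, 8 by at least 1.5-fold, against 14.6% and 1.22% of all genes, and 2 (Egr2 and Myc) lay within counting error, at a median of -0.42. Nr4a1, an orphan nuclear receptor gene that is also a marker of patrolling monocytes, measured 81.4 FPKM with vehicle, 35.5 with amiodarone, 115 with dabigatran alone and 15.02 with both drugs, a ratio of 0.423 (0.39 to 0.466). Fosb, a subunit of the factor AP-1, measured 6.67, 4.67, 10.3 and 1.88 FPKM, a ratio of 0.403 (0.321 to 0.488). In Nr4a1 and Fosb dabigatran was the highest library and the combination the lowest. Atf3, a stress-induced transcription factor gene, measured 10.2, 12.2, 11.8 and 5.72 FPKM, a ratio of 0.468 (0.395 to 0.553), and Cyr61, which encodes a secreted matrix-associated protein, 189, 89.9, 263 and 54.8 FPKM, a ratio of 0.61 (0.577 to 0.645). Atf3 was highest with amiodarone and Cyr61 with dabigatran. Of the 24 genes, 15 stood above their vehicle level with amiodarone and 5 did so with both drugs, against 5530 and 6407 of all 13261 genes. The time between death and freezing is not given in the sources used here, and its part in these values was not tested.

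Genes of the lung endothelium fell in 21 of 26 cases, at a median of -0.25, with 2 by at least 1.5-fold. The shares over all genes were 14.6% and 1.22%. Aplnr, the apelin receptor gene of capillary endothelium, measured 24.2 FPKM with vehicle, 7.62 with amiodarone, 22.9 with dabigatran alone and 4.36 with both drugs, a ratio of 0.572 (0.494 to 0.663). Lyve1, known from lymphatic endothelium and some macrophages, measured 104, 209, 103 and 136 FPKM, a ratio of 0.653 (0.633 to 0.674). Vwf, von Willebrand factor, measured 62.4, 86.0, 83.5 and 65.9 FPKM, a ratio of 0.767 (0.748 to 0.786). The patterns differed between these 3 genes: amiodarone was low for Aplnr and high for Lyve1, and both single drugs were high for Vwf. The gene that rose was Edn1, endothelin 1 (17.9, 17.8, 16.6 and 23.9 FPKM, ratio 1.35, 1.22 to 1.49).

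Among targets of the glucocorticoid receptor and metallothionein genes 18 of 20 fell and none rose, at a median of -0.32. The shares over all genes were 14.6% and 20.9%. Fkbp5, a co-chaperone of the receptor and a common readout of its activity, measured 4.50 FPKM with vehicle, 31.2 with amiodarone, 4.51 with dabigatran alone and 20.7 with both drugs, a ratio of 0.662 (0.62 to 0.707). Cdkn1a, a cell cycle inhibitor gene, measured 34.5, 94.0, 35.1 and 62.2 FPKM, a ratio of 0.662 (0.627 to 0.699). Against vehicle, all 20 genes were higher with amiodarone and 19 with both drugs, so the combination stood between the 2 libraries. Of all 13261 genes, 5530 were higher than vehicle with amiodarone and 6407 with both drugs. Lcn2, which encodes a siderophore-binding defence protein of neutrophils and epithelium and stands on 3 of the lists, measured 157, 921, 155 and 320.1 FPKM, a ratio of 0.348 (0.337 to 0.36).

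The other acute phase and neutrophil genes were mixed. Of 24 acute phase and cytokine signalling genes 4 rose and 10 fell, against 20.9% and 14.6% of all genes. Orm1, an acute phase plasma protein gene, measured 1.19 FPKM with vehicle, 3.92 with amiodarone, 0.86 with dabigatran alone and 0.73 with both drugs, on 53 and 10 reads in the compared libraries (ratio 0.186, 0.0848 to 0.371). Socs3, a feedback inhibitor of cytokine signalling, measured 12.3, 38.7, 12.6 and 26.3 FPKM, a ratio of 0.68 (0.635 to 0.731), and Cfb, complement factor B, 17.8, 24.6, 19.1 and 36.8 FPKM, a ratio of 1.5 (1.39 to 1.61). Socs3 thus fell and Cfb rose above all other libraries. Of 21 neutrophil genes compared 8 fell, 2 rose and 11 lay within counting error, at a median of -0.11. Retnlg, a resistin-like secreted protein gene of neutrophils, measured 9.24, 110, 9.22 and 63.5 FPKM, a ratio of 0.579 (0.526 to 0.639), and S100a8, a calcium-binding subunit of calprotectin, 22.4, 141, 16.7 and 99.4 FPKM, a ratio of 0.703 (0.635 to 0.781). Both remained well above vehicle with the combination, whereas the neutrophil surface protein gene Cd177 rose (4.02, 4.55, 3.27 and 7.55 FPKM, ratio 1.66, 1.39 to 1.94).

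Slfn4 and Ly6i, among the 15 largest falls, followed the pattern of amiodarone highest. Slfn4, a Schlafen family gene of myeloid cells, measured 1.16 FPKM with vehicle, 50.2 with amiodarone, 1.12 with dabigatran alone and 14.9 with both drugs, a ratio of 0.296 (0.285 to 0.328). Ly6i, a member of the Ly6 surface protein family whose near-identical relatives can share reads, measured 3.13, 23.9, 3.3 and 6.32 FPKM, a ratio of 0.265 (0.207 to 0.323). Of the 15 largest falls 3 had no interpretable symbol, as had 2 of the 15 largest rises.

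Macrophage genes did not move as 1 group. Of 21 alveolar and pan-macrophage genes 11 rose and 5 fell, 5 at least 1.5-fold higher and 1 at least 1.5-fold lower. The shares over all genes were 20.9%, 14.6%, 1.06% and 1.22%. Marco, a scavenger receptor, measured 1.66 FPKM with vehicle, 4.39 with amiodarone, 4.41 with dabigatran alone and 12.2 with both drugs, a ratio of 2.79 (2.32 to 3.36). Ear1 and Ear6, eosinophil-associated ribonucleases of a family with near-identical members, moved in opposite directions. Ear1 measured 22.3, 4.48, 24.4 and 10.3 FPKM, a ratio of 2.30 (1.67 to 3.22), while Ear6 measured 0.35 with vehicle, 64.0 with amiodarone, was listed at 0 with dabigatran and measured 31.0 with both drugs, a ratio of 0.485 (0.428 to 0.549). Siglecf, a sialic acid-binding receptor of alveolar macrophages and eosinophils, measured 2.01, 2.96, 2.44 and 5.63 FPKM, a ratio of 1.90 (1.54 to 2.36). Fabp1, a fatty acid-binding protein gene, had only 2 reads with amiodarone (5.79, 0.25, 5.46 and 1.58 FPKM, ratio 6.32, 1.46 to 58.8). Outside the list, Cd5l, a secreted protein of tissue macrophages, measured 0.09, 0.22, 0.45 and 2.03 FPKM on 8 and 76 reads (ratio 9.23, 4.54 to 22.6), and the lectin gene Fcna, ficolin A, 0.27, 1.05, 2.50 and 3.77 FPKM (ratio 3.59, 2.27 to 5.80).

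Of the recruited macrophage and monocyte genes 4 of 26 rose and 11 fell, at a median of -0.13. The shares over all genes were 20.9% and 14.6%. Ly6c2, the marker of classical monocytes, which has near-identical relatives, measured 28.2 FPKM with vehicle, 115 with amiodarone, 34.9 with dabigatran alone and 75.8 with both drugs, a ratio of 0.659 (0.613 to 0.715). Arg1, arginase 1, measured 1.04, 0.68, 0.59 and 1.75 FPKM on 18 and 47 reads, a ratio of 2.57 (1.47 to 4.73). The CC and CXC chemokines divided likewise, with 6 of 23 rising and 10 falling, against 20.9% and 14.6% of all genes. Ccl4, an inflammatory chemokine of myeloid and natural killer cells, measured 1.13, 4.43, 2.35 and 1.75 FPKM (ratio 0.395, 0.302 to 0.825), and the monocyte chemoattractant Ccl8 3.65, 8.83, 4.98 and 4.54 FPKM (ratio 0.514, 0.341 to 0.768). Cxcl13, which attracts B cells to lymphoid follicles, measured 1.91, 2.56, 4.49 and 6.35 FPKM, a ratio of 2.48 (1.80 to 3.49), and was the only member of the list that rose by at least 1.5-fold.

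Genes of the mesothelium, the squamous sheet that covers the lung, were higher with both drugs: 12 of 15 rose, 6 by at least 1.5-fold, against 20.9% and 1.06% of all genes, and Slpi fell (-0.21). Lrrn4, a leucine-rich repeat membrane protein, measured 12.9 FPKM with vehicle, 4.42 with amiodarone, 14.7 with dabigatran alone and 13.9 with both drugs, a ratio of 3.13 (2.52 to 3.21). Upk3b, uroplakin 3b, measured 44.6, 19.4, 44.5 and 45.2 FPKM, a ratio of 2.33 (2.13 to 2.55). Msln, mesothelin, measured 35.7, 21.9, 32.8 and 44.9 FPKM, a ratio of 2.05 (1.89 to 2.23). For the first pair of genes the other three libraries were nearly level and amiodarone alone was low. Wt1, a transcription factor gene of mesothelium, measured 1.35, 0.58, 1.46 and 1.58 FPKM (ratio 2.72, 1.82 to 4.20). How much of the lung surface entered each extract is not given in the sources used here, and its part in these values was not tested.

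Other large rises lay outside these lists. Slurp1, a secreted Ly6-type protein of squamous epithelium, measured 13.8 FPKM with vehicle, 7.08 with amiodarone, 12.6 with dabigatran alone and 20.7 with both drugs, a ratio of 2.92 (2.18 to 3.97). Sprr1a, a small proline-rich protein of the cornified envelope, measured 3.74, 5.75, 2.39 and 16.7 FPKM, a ratio of 2.91 (2.24 to 3.80). Sfrp2, a secreted modulator of Wnt signalling, measured 8.45, 2.03, 9.06 and 6.13 FPKM, a ratio of 3.02 (2.32 to 3.99). Sprr1a was highest with both drugs, while Sfrp2 with both drugs stood between its amiodarone and vehicle levels. Xlr3b, on the X chromosome, with near-identical copies beside it, measured 1.15, 1.76, 6.67 and 5.21 FPKM, a ratio of 2.96 (2.10 to 4.05).

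In the airways and alveoli the largest difference was that of Clca1, a protein secreted with mucus by goblet cells, which fell further than any other gene with an interpretable symbol (chr3:145004537-145032776, GRCm38.p6). It measured 3.53 FPKM with vehicle, 8.72 with amiodarone, 13.99 with dabigatran alone and 1.08 with both drugs, on 471 and 59 reads in the compared libraries, a ratio of 0.124 (0.093 to 0.163). Dabigatran alone was thus the highest library and the combination the lowest. Muc5b, a gel-forming airway mucin, measured 15.4, 13.1, 15.7 and 9.67 FPKM (ratio 0.738, 0.703 to 0.776), and Bpifb1, an airway defence protein, 115, 101, 179 and 67.0 FPKM (ratio 0.666, 0.63 to 0.705). In the club cell list 11 of 18 genes rose and 4 fell, against 20.9% and 14.6% of all genes, at a median of 0.13. Scgb1a1, the main secretoglobin, rose from 73994 to 97786 FPKM, against 124168 with vehicle and 99032 with dabigatran. Of 25 motile cilium genes 8 rose and 1 fell, at a median of 0.05, and Fam183b, the member with the largest difference, measured 58.6, 33.3, 48.4 and 47.5 FPKM.

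The alveolar type 2 and surfactant list was balanced around a median of 0.04. In it 10 of 22 genes rose and 8 fell, against 20.9% and 14.6% of all genes. Sftpd, a collectin of surfactant, measured 481 FPKM with vehicle, 828 with amiodarone, 477 with dabigatran alone and 594 with both drugs, a ratio of 0.717 (0.702 to 0.733). Chil1, a chitinase-like lectin, measured 542, 1028, 554 and 687 FPKM, a ratio of 0.668 (0.657 to 0.68). Fasn, fatty acid synthase, went the other way at 53.7, 61.6, 52.8 and 77.4 FPKM, a ratio of 1.26 (1.23 to 1.29). Within the list, therefore, the 2 host defence genes named fell towards vehicle. Fasn, already above vehicle with amiodarone, rose further above it. In alveolar type 1 cells 6 of 17 genes rose and 5 fell, at a median of 0.02.

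Lists tied to the storage of lipid in lysosomes and to matrix had medians close to that of all genes. Of 39 lysosomal genes 8 rose and 10 fell, against 20.9% and 14.6% of all genes. Their median was 0.01, and none passed 1.5-fold. The protease gene Ctsd, cathepsin D, measured 262 FPKM with vehicle, 495 with amiodarone, 287 with dabigatran alone and 606 with both drugs, a ratio of 1.22 (1.2 to 1.25). In the foamy macrophage and lipid storage list 6 of 23 genes rose and 10 fell at a median of -0.03. Lpl, lipoprotein lipase, measured 63.8, 138, 65.0 and 99.2 FPKM, a ratio of 0.716 (0.696 to 0.738), while Pla2g15, the lysosomal phospholipase A2, measured 11.4, 12.4, 13.8 and 17.9 FPKM, a ratio of 1.45 (1.30 to 1.60). The summed level of the lysosomal list was 4241 FPKM with amiodarone and 4254 with both drugs, against 2965 with vehicle. In cholesterol synthesis 9 of 23 genes rose and 3 fell, at a median of 0.12.

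Of 23 collagen genes 10 rose and 4 fell, against 20.9% and 14.6% of all genes. Their median was 0.08, and the summed level of the list was 847 FPKM with amiodarone and 839 with both drugs. Col3a1, a fibrillar collagen, measured 95.6 FPKM with vehicle, 47.7 with amiodarone, 121 with dabigatran alone and 59.9 with both drugs, a ratio of 1.26 (1.21 to 1.31). The list of platelet-derived growth factors and receptors had a median of 0.03, with 3 of 6 genes rising. Pdgfra, the alpha receptor on fibroblasts, measured 42.0, 39.1, 43.5 and 45.1 FPKM, a ratio of 1.15 (1.11 to 1.2), and the gene of its ligand, Pdgfc, 0.92, 1.05, 0.80 and 1.04 FPKM, a ratio of 0.99 (0.648 to 1.41). Pdgfra thus had its lowest value with amiodarone, and the difference in Pdgfc was within counting error. The study's qRT-PCR, on several mice per group, differs for Pdgfra. It found Pdgfra raised by amiodarone and lowered by co-treatment, and Pdgfc raised by amiodarone but not affected by co-treatment. Pdgfc had only 45 reads with vehicle and 57 with amiodarone here, so a rise was not settled. A single library per group cannot overrule the qRT-PCR. Mmp12, macrophage elastase, measured 1.92, 9.46, 3.10 and 6.58 FPKM, a ratio of 0.696 (0.573 to 0.814), and Timp1, an inhibitor of metalloproteinases, 10.2, 14.7, 12.95 and 16.5 FPKM, a ratio of 1.13 (0.938 to 1.35). Mmp12 stood between vehicle and amiodarone with both drugs, and the difference in Timp1 was within counting error. By qRT-PCR the study found both raised by amiodarone, with Mmp12 but not Timp1 lowered by co-treatment. The rises it reports for both are larger than those between the vehicle and amiodarone libraries here.

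Ribosomal protein genes, all short and abundant, were slightly higher with both drugs: 25 of 30 rose and none fell, at a median of 0.13, with the largest difference at 0.29 (Rpl32). In the respiratory chain 16 of 36 genes rose and none fell, at a median of 0.08. Among antioxidant and glutathione genes 16 of 28 rose and 1 fell, at a median of 0.13. Beside these lists, 20.9% of all genes rose and 14.6% fell. Over all genes the median log2 difference declined with transcript length, from 0.07 in the fifth of genes with the shortest effective length to -0.02 in the fifth with the longest, and the part of length in these small list differences was not tested.

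Because dabigatran against vehicle shares no library with the combination against amiodarone, the 2 comparisons can be set side by side. Across genes the log2 differences had a Pearson r of -0.09, and 45.7% had the same sign, a description in which genes are not independent replicates. In 5 lists the median difference between the comparisons was at least 1.5-fold: it was -1.03 for interferon-stimulated genes, -0.91 for red blood cell genes, -0.68 for interferon-gamma genes, 0.75 for platelet genes and 0.80 for B lymphocyte genes. The ratio of Isg15 was 0.292 on amiodarone and 1.05 (0.828 to 1.33) without it, and the first was 0.278 of the second (counting interval 0.212 to 0.366). Clca1 was the most divergent of the named genes with reads in all 4 libraries, falling to 0.124 on amiodarone and standing at 3.96 (3.36 to 4.70) without it. Nr4a1 was likewise 0.423 on amiodarone and 1.41 (1.36 to 1.48) without it, and Ppbp 3.06 and 1.27 (1.13 to 1.42). Marco moved alike, at 2.79 and 2.66 (1.94 to 3.68), with a ratio of the 2 of 1.05 (0.734 to 1.5). Cardiac muscle genes, which can come from muscle in the pulmonary veins, were lower with dabigatran than with vehicle (median -0.46) and less so on amiodarone (-0.16). With amiodarone alone the list was already lower than with vehicle (median -0.77). The source of these transcripts in the lung extracts was not tested.

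**Figure D5:**
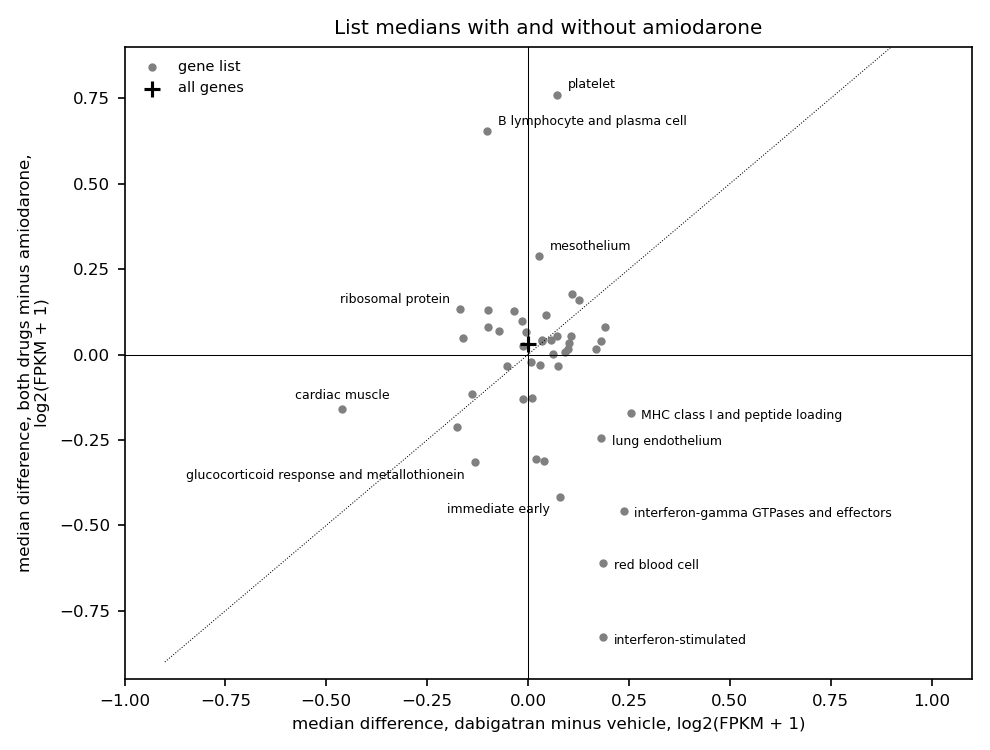
Median log2 difference of each list for the combination minus amiodarone (vertical axis) against dabigatran minus vehicle (horizontal axis), both on log2(FPKM + 1), with the cross at all genes and the dotted line where both would be equal. Interferon-stimulated (-0.83 and 0.19) and red blood cell genes (-0.61 and 0.19) lie far below the line, and platelet (0.76 and 0.07) and B lymphocyte genes (0.65 and -0.10) far above it.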

How the data were processed

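Poly(A) RNA from the lungs of the 4 groups was sequenced by DNBseq, 1 library per group, and each library was assigned to its group by its label. The authors mapped reads to GRCm38.p6 with HISAT 2.0.4 and Bowtie2 2.2.5, and RSEM 1.2.8 gave the levels. For each gene and library, the deposited table holds an RSEM estimated count and a level normalized by the authors, read here as FPKM. The unit is not named in the sources used here and was inferred, since reads per unit of level differ between the compared libraries by a factor of 1.01, as do their total reads. Another 8 deposited columns hold means of 2 libraries and were not used.

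For genes that reached 1 FPKM in 1 or both of the libraries, log2((combination + 1)/(amiodarone + 1)) was computed. It understates the change of genes with low levels. Exact Clopper-Pearson 95% intervals of the ratio of reads, rounded to whole numbers and rescaled by total reads, cover counting error only, since fragments are not independent molecules. Intervals for the ratio of 2 ratios came from Poisson errors of the 4 counts on the log scale. With 1 library per group no test was made and no p-value is given.

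The 45 gene lists hold 1006 genes, of which 984 were in the table and 910 were compared. The comparison, the members and the lists were chosen with earlier results of these data known. Named are the 15 largest rises and 15 largest falls beyond counting error, up to 5 members per list with the largest absolute difference, and 4 genes measured by qRT-PCR in the study (Pdgfra, Pdgfc, Mmp12, Timp1). Genes without an interpretable symbol were counted only. Coordinates and promoters are those of RefSeq on GRCm38.p6, matched by gene for 99.4% of the table. The alternatives were a pseudocount of 0.1, a filter of 5 FPKM or none, 3 other scalings (the median ratio, edgeR 4.0.16 TMM factors, total reads), a fold of 1.5 and calls beyond counting error only. The calculation was tested on simulated data. Python 3.11.15, numpy 2.4.6, pandas 2.3.3, scipy 1.17.1 and matplotlib 3.10.9 were used. A list member that this choice would name is not reported here.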

Additional observations from a re-analysis of the deposited data

Results flagged for a closer look

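Of the 4 lists whose median differed by at least 1.5-fold when dabigatran was added to amiodarone, 3 had a median of the other sign when dabigatran was given alone, in comparisons that share no library. Interferon-stimulated genes had a median log2 difference of -0.83 with both drugs against amiodarone and of 0.19 with dabigatran against vehicle. Red blood cell genes had medians of -0.61 and 0.19, and B lymphocyte and plasma cell genes of 0.65 and -0.10. Among the lists with a smaller median difference, 19 also had opposite signs in the 2 comparisons, many with medians close to 0. With 1 library per group the difference between the comparisons was not tested.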

How the results depend on the processing

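The counts of genes past a fold depended on the settings more than the list medians did. With a pseudocount of 0.1 there were 79 genes at least 2-fold higher and 78 at least 2-fold lower, against 25 and 38, because the smaller pseudocount lets genes with low levels reach the fold. With counts of reads divided by library totals 38 genes were higher, and at 1.5-fold the counts were 140 and 162. Without a filter 1 list in place of 2 was at least 1.5-fold lower, since the red blood cell median became -0.51 when its members under 1 FPKM were counted. A filter of 1 FPKM on average over the 4 libraries, chosen after seeing the data, left 22 and 34 genes.

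Over these settings the medians ranged from -0.96 to -0.83 for interferon-stimulated genes, -1.12 to -0.51 for red blood cell genes, 0.73 to 0.87 for platelet genes, 0.61 to 0.84 for B lymphocyte genes and 0.25 to 0.52 for mesothelium. The chemokine median of -0.31 became 0.03 with a filter of 5 FPKM. The medians of alveolar type 1 and type 2 cells, coagulation, lysosome, metalloproteinases, other extracellular matrix and platelet-derived growth factor lay so near 0 that their sign changed with the setting. The cause was not tested beyond what is stated. Scaling by the median ratio or TMM moved the median of all genes from 0.03 to -0.00 and -0.01. Of the list medians recomputed, 301 moved by no more than the counting error of a typical member and 14 by more, and of the values of named genes 1446 and 80 relative to their own counting error.

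No paired analysis was possible because each group has 1 library. For the same reason no replicate was left out, and no depth of sequencing supplies the missing error between animals.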

Other observations

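Some genes outside the lists are given here. They were chosen after their values were seen, so their highest or lowest library lends no weight to any list. Il1r2, a decoy receptor for interleukin 1, measured 0.71 FPKM with vehicle, 11.7 with amiodarone, 0.40 with dabigatran alone and 4.15 with both drugs. Gal, which encodes the neuropeptide galanin, measured 1.87, 8.73, 1.49 and 3.04 FPKM, and Apol9b, an apolipoprotein L gene with a near-identical copy, 3.24, 11.2, 3.66 and 4.13 FPKM. All 3 were highest with amiodarone.

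On the other side, Alox12, the platelet-type lipoxygenase, measured 12.2 FPKM with vehicle, 7.41 with amiodarone, 13.8 with dabigatran alone and 17.8 with both drugs. Slc6a4, the serotonin transporter, measured 2.79, 2.2, 2.67 and 5.20 FPKM. Both were highest with both drugs. Aldh1a2, a retinoic acid-forming enzyme known from mesothelium, measured 16.97, 6.11, 13.3 and 14.3 FPKM, and Pou2af1, a transcriptional co-activator of B cells, 7.59, 5.12, 6.57 and 10.1 FPKM. Both were lowest with amiodarone. With both drugs Pou2af1 stood above its vehicle level, unlike the B lymphocyte gene Pax5, and Aldh1a2 stood below its vehicle level.

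Among lists not described above, 10 of 19 core circadian clock genes fell and 2 rose, at a median of -0.21. Over all genes 14.6% fell and 20.9% rose. Per1, a repressor of the clock, measured 23.2, 59.7, 22.6 and 46.6 FPKM, and the activator gene Arntl 3.60, 2.43, 4.28 and 3.90 FPKM, and the hour of killing is not given in the sources used here. In coagulation and fibrinolysis 4 of 22 genes rose and 8 fell. F5, coagulation factor V, measured 1.72, 1.11, 1.81 and 2.80 FPKM, and Fgg, the gamma chain of fibrinogen, 0.28, 1.68, 0.38 and 0.64 FPKM. In the unfolded protein and integrated stress response 14 of 28 genes rose and 7 fell. Gdf15, a secreted stress cytokine, measured 1, 12.6, 0.99 and 6.89 FPKM, while the serine synthesis gene Phgdh measured 4.90, 7.08, 4.96 and 10.9 FPKM. Of 29 cell cycle genes 2 rose and none fell, and 27 lay within counting error.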
